A study of Mus musculus with 20 samples.

Results

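Lipoprotein lipase (Lpl) and 7 genes that act with it on plasma triglyceride were followed through single-cell RNA libraries of the stroma of mouse interscapular brown adipose tissue (iBAT). The 8 genes were Lpl, Gpihbp1, Cd36, Angptl4, Fabp5, Slc27a1, Vldlr and Aqp7, each chosen by its symbol and each found in exactly 1 of the 31053 gene rows. Male C57BL/6J mice were housed at 24 °C (RT), at 6 °C for 4 days (COLD) or at RT with the ADRB3 agonist CL316,243 infused at 0.75 nmol per hour for 4 days (CL), with 2 experiments per treatment. Stromal cells were split on magnetic beads into a lineage-negative fraction (Lin-, stromal and vascular cells) and a lineage-positive fraction (Lin+, immune cells), so that each treatment had 2 Lin- and 2 Lin+ libraries. Female mice of an Adrb1 fl/fl line, with Pdgfra-CreER (Adrb1 KO) or without it (WT), gave 1 library per genotype, temperature and fraction. All mice of that line carried both floxed alleles and had received tamoxifen, and the Cre driver limits the deletion to cells that express Pdgfra. Each library pooled 3 to 4 mice aged 8 to 14 weeks, and mature adipocytes, which float off during preparation, were not captured.

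Triglyceride-rich lipoproteins are hydrolysed on the inner face of capillaries. Lpl is made in parenchymal and stromal cells, and GPIHBP1, a protein of the endothelial surface, carries it across the capillary wall and holds it there, while ANGPTL4 inactivates it. The released fatty acids are taken up through the scavenger receptor CD36 and the transport protein FATP1 (Slc27a1) and are bound in the cytosol by FABP5. VLDLR binds whole lipoproteins, and AQP7 is a channel for glycerol. In brown fat this route is known to supply fuel for heat production. Several of these genes, Cd36 and Angptl4 among them, are textbook targets of PPAR nuclear receptors.

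In GENCODE vM21 on GRCm38 all 8 genes are protein coding and none overlaps another gene. Lpl lies at chr8:68880491-68907448 (plus strand), Gpihbp1 at chr15:75596628-75599481 (plus), Cd36 at chr5:17781690-17888801 (minus) and Angptl4 at chr17:33773750-33781830 (minus). Fabp5 lies at chr3:10012548-10016607 (plus), Slc27a1 at chr8:71568882-71587302 (plus), Vldlr at chr19:27216484-27254231 (plus) and Aqp7 at chr4:41033074-41048139 (minus). Fabp5 has processed copies elsewhere in the mouse genome, so that its counts may be split or shared with them. One RefSeq promoter is shown because Cd36, one of the genes whose level in ASC1-like cells moved with treatment, is a known PPAR target. The 250 bases before a Cd36 start inside the gene (GRCm38.p6, chr5:17835897-17836146, minus strand) hold 1 copy of the nuclear receptor half-site AGGTCA, searched on both strands and given in capitals where it reads TGACCT.

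Cd36 promoter: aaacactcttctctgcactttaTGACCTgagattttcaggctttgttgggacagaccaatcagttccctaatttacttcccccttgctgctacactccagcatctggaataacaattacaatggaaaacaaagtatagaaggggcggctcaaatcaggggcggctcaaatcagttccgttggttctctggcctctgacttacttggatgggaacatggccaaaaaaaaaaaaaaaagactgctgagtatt

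The half-site is common, since 14.02% of 32851 promoters of the same length hold it. The spaced repeat AGGTCANAGGTCA, the form that PPAR and RXR bind as a pair, was in none of the matched promoters of the 8 genes and in 0.03348% of all. Promoters were matched for Cd36, Slc27a1, Vldlr and Aqp7. The half-site was in 0 of 3 promoters of Slc27a1, which also rose in ASC1-like cells in COLD, and in 0 of 2 Vldlr promoters, while the 2 overlapping Aqp7 promoters held 1 and 2 copies.

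After filtering, 66339 Lin- and 59935 Lin+ cells remained, with a median of 1204 to 4358 UMIs per cell in the C57 libraries. Clusters were named from marker genes, with the 8 genes and the related lipid genes left out of the clustering. Lin- held capillary, arterial and venous vascular endothelial (VEC-like) cells, pericyte-like and VSMC-like cells and 3 adipose stromal classes (ASC1-, ASC2- and ASC3-like), and Lin+ held MAC1-like and MAC2-like macrophages among other immune classes. A cluster with the MAC3 markers stayed unnamed because 1 of 6 general macrophage markers was raised in it. A shallow cluster with capillary markers (3271 cells, a median of 542 UMIs) was led by haemoglobin genes and the adipocyte genes Cidea and Cox8b, held 19.3% of 1 CL library and at most 6.08% of any other, and was left out of the capillary class. The second C57 RT Lin- library stood apart, with 27.96% of its barcodes kept and the highest scaling factors. The second CL pair shared 1098 cell barcodes between Lin+ and Lin-. Capillary VEC-like cells numbered 53 to 1608 per C57 library. In pooled cell sums, fewer expressing cells in a class and less RNA per cell cannot be told apart.

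Levels below are counts of a gene scaled to the UMI total of a class (CPM). Among 10 classes of stroma, vessels and macrophages, Lpl had its highest mean in ASC1-like cells, Gpihbp1, Cd36, Angptl4, Fabp5 and Aqp7 in capillary VEC-like cells, Vldlr in ASC2-like cells and Slc27a1 in MAC1-like cells. The same class was highest for 8 of 8 genes when cells were clustered at resolution 2 in place of 1. Lymphocytes of the Lin+ libraries, which should lack most of these transcripts, gave the background of that fraction: at most 75.9 CPM for Lpl, 10.3 for Gpihbp1, 39.1 for Cd36 and 5.24 for Angptl4, then 75.8 for Fabp5, 14.4 for Slc27a1, 0 for Vldlr and 1.32 for Aqp7. Background in Lin- was higher, since its few NK-like cells held 82.8 to 701 CPM of Lpl, 14.2 to 463 of Gpihbp1, 18.6 to 490 of Cd36 and 5.8 to 84.9 of Angptl4. The same cells held 13.5 to 223 CPM of Fabp5, 0 to 26.6 of Slc27a1, 4.8 to 25.7 of Vldlr and 0 to 84.6 of Aqp7.

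**Figure D1:**
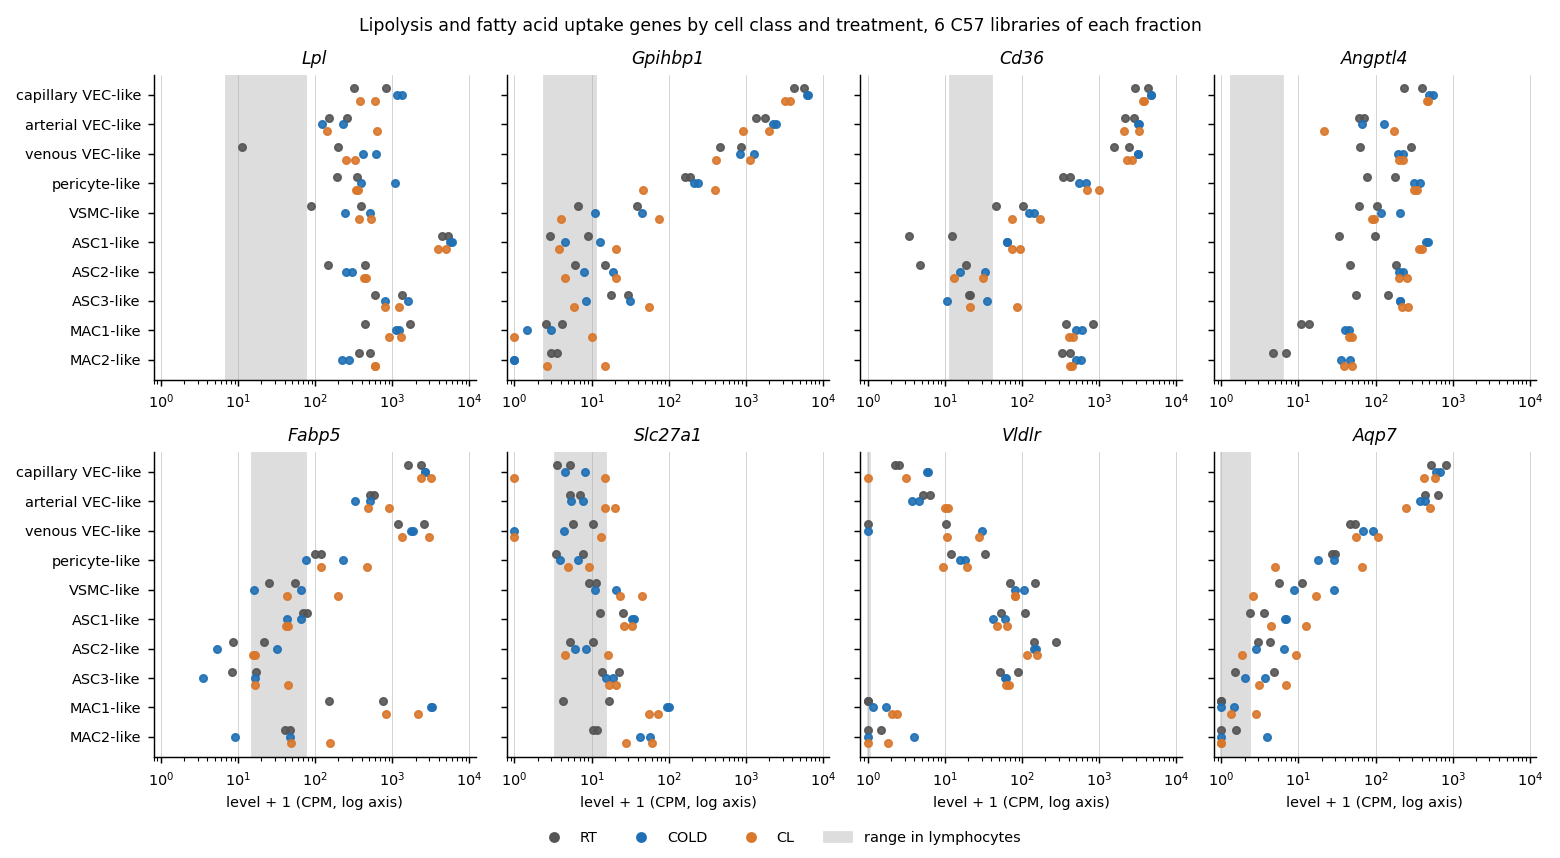
Level of each of the 8 genes (CPM + 1, log axis) in 10 cell classes (rows), 1 point per C57 library and coloured by treatment, with the range in Lin+ lymphocytes in grey. The mean of Gpihbp1 declines from capillary to arterial to venous VEC-like cells, Lpl is highest in ASC1-like cells, and Vldlr in ASC2-like cells.

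Lpl, the lipase itself, averaged 5039 CPM ± 763 (SD, n = 6 libraries) in ASC1-like cells. ASC3-like cells had 1062 ± 379 and MAC1-like cells 1112 ± 416, ranges that overlapped each other and that of capillary VEC-like cells (771 ± 416). Every ASC1-like library (3919 to 5958 CPM) lay above every library of those 3 classes. A median of 61.9% of all Lpl UMIs in the Lin- libraries came from ASC1-like cells, and 1.36% came from endothelium. Cells of the cluster with differentiating adipocyte markers reached 3526 and 4400 CPM in COLD and 5061 and 4980 CPM under CL, and only the first of these lay below the lowest ASC1-like library.

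Gpihbp1, the endothelial partner of the lipase, averaged 4914 CPM ± 1358 in capillary VEC-like cells, 1786 ± 575 in arterial VEC-like cells and 415 to 1262 CPM in venous VEC-like cells. The capillary level was above the arterial level in 6 of 6 libraries, and the arterial above the venous in 6 of 6. Endothelium held a median of 77.8% of Gpihbp1 UMIs in Lin- and 92.1% in Lin+. Pericyte-like cells had 45.9 to 403 CPM. In ASC1-like cells Gpihbp1 was at 1.9 to 19.6 CPM and overlapped the range of Lin+ lymphocytes and of Lin- NK-like cells.

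Cd36, the fatty acid receptor, was less restricted along the vessel. It averaged 4033 CPM ± 710 in capillary, 2796 ± 546 in arterial and 2554 ± 615 in venous VEC-like cells, and all of these ranges overlapped one another. MAC1-like cells (375 to 824 CPM), MAC2-like cells (330 to 584 CPM) and pericyte-like cells (334 to 1007 CPM) formed a second tier. Aqp7, the glycerol channel, followed the capillary and arterial classes (607 ± 135 and 441 ± 131 CPM, with overlapping ranges) and stood at 46.1 to 106 CPM in venous VEC-like cells.

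Fabp5, the cytosolic binding protein, averaged 2470 CPM ± 523 in capillary and 1945 ± 703 in venous VEC-like cells, with overlapping ranges, and lay lower in arterial cells (327 to 909 CPM). Over all 27 classes compared, DEND3-like dendritic cells had the highest Fabp5 mean (3437 CPM ± 1476). The cluster with differentiating adipocyte markers had 2726 to 4020 CPM in its COLD and CL libraries. Angptl4, the lipase inhibitor, averaged 435 ± 110 CPM in capillary VEC-like cells, and its range there (235 to 552 CPM) overlapped that of ASC1-like cells (32.7 to 485 CPM).

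Slc27a1, a fatty acid transporter that also activates fatty acids, stayed low throughout: 3.3 to 101 CPM in MAC1-like cells, 12.1 to 34.2 CPM in ASC1-like cells and 0 to 14.0 CPM, no higher than in lymphocytes, in capillary VEC-like cells. Schwann-like cells had the highest mean of the 27 classes (95.4 CPM ± 65.2). Vldlr, a lipoprotein receptor, averaged 163 CPM ± 56.7 in ASC2-like cells, 93.4 ± 29.3 in VSMC-like cells and 64.3 ± 11.9 in ASC3-like cells, and was at 0 in Lin+ endothelium.

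In ASC1-like cells both treatments raised Angptl4 and Cd36, and COLD also raised Slc27a1. The question was which stromal class changes its lipid-handling genes when brown fat is activated. Angptl4 stood at 32.7 and 98.5 CPM at RT, 454 and 485 CPM in COLD and 366 and 395 CPM under CL. The COLD and CL libraries thus lay above both RT libraries without overlap. Angptl4 rose 8.82-fold in COLD (log2 change 3.14 ± 0.41 SE, adjusted p = 0.0021, edgeR quasi-likelihood test) and 7.41-fold under CL (2.89 ± 0.41, adjusted p = 0.015).

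Cd36 in the same cells was at 11.3 and 2.4 CPM at RT (77.4 and 4.89 counts), 62.8 and 63.3 CPM in COLD and 72.0 and 92.5 CPM under CL. It rose by 2.91 ± 0.48 in COLD (log2, adjusted p = 0.0058) and by 3.37 ± 0.49 under CL (adjusted p = 0.016). The size rests on the low RT libraries, since the COLD change was 5.13 without the first RT library and 2.29 without the second (CL, 5.60 and 2.76). With all 10 Lin- libraries the COLD change was 2.08 (edgeR, adjusted p = 0.0031). That fit had no term for kit, and the added Adrb1-line libraries used kit v3 at RT and kit v2 in COLD.

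Adipocyte genes, as a sign of free RNA, were measured beside that rise. The summed level of 12 brown adipocyte genes in ASC1-like cells was 142 and 187 CPM at RT, 222 and 149 CPM in COLD and 494 and 223 CPM under CL, and 4 of the 12 rose and 2 fell in COLD while 5 rose under CL. Fasn alone made up 68.1 and 68.8 CPM of the sum at RT and 34.2 and 21.3 CPM in COLD. The sum is thus no measure of free RNA alone and hides rises in other genes. The median log2 change over the 12 genes was 2.59 in COLD and 3.95 under CL. In the few NK-like cells of the Lin- libraries (39 to 152 per library), Cd36 was at 18.6 and 22.2 CPM at RT, 140 and 59.3 CPM in COLD and 490 and 102 CPM under CL, and Gpihbp1 at 14.2 to 463 CPM. There were 1.42 and 1.31 Cd36 counts per Gpihbp1 count in ASC1-like cells at RT and 3.67 to 33.9 under treatment. The ratio was 0.679 to 1.14 in capillary VEC-like and 0.255 to 1.53 in NK-like cells, but 2.05 to 15.3 in pericyte-like and 2.34 to 24.3 in VSMC-like cells. In ASC2-like cells it was 1.275 and 0.738 at RT and 1.51 to 3.50 under treatment. In ASC3-like cells it was 1.18 and 0.669 at RT and 1.12 to 4.07 under treatment. As a percent of the adipocyte gene sum, Cd36 was 7.91 and 1.31 at RT and 14.6 to 42.4 under treatment in ASC1-like cells, and 15.96 to 39.5 in NK-like cells. The RT percents in ASC1-like cells carry the Fasn counts in that sum. With only those ASC1-like cells that held under 0.5 adipocyte UMIs, the Cd36 change was 2.59 (adjusted p = 0.0055) in COLD and 3.25 (adjusted p = 0.014) under CL. The part of free RNA in the Cd36 change was not tested.

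Slc27a1 in ASC1-like cells was at 12.1 and 24.9 CPM at RT, 34.2 and 32.9 CPM in COLD and 32.5 and 25.2 CPM under CL. It rose 2.17-fold in COLD (log2 change 1.12 ± 0.18, adjusted p = 0.0053). The COLD call was lost without the first RT library (0.91, adjusted p = 0.051) and with plain library totals (adjusted p = 0.26). Under CL the change was 0.92 ± 0.20 (adjusted p = 0.067), and with the replicate experiment as a block it was called (adjusted p = 0.041).

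Of the 8 genes, all were tested in ASC1-like cells. In COLD 3 rose and none fell, beside 14.1% of 12333 genes called in either direction (7.38% up), and under CL 2 rose beside 1.22% (0.705% up). The median change over the 8 genes was 0.76 in COLD and 0.79 under CL, beside 0.01 and 0.00 over all genes. Lpl, the most abundant of them, was at 4444 and 5329 CPM at RT, 5642 and 5958 CPM in COLD and 4941 and 3919 CPM under CL, with a log2 change of 0.39 ± 1.05 in COLD (adjusted p = 0.84). Aqp7 was at 1.3 to 11.7 CPM, with 1.33 ± 0.54 in COLD (adjusted p = 0.14) and 1.59 ± 0.60 under CL (adjusted p = 0.30).

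**Figure D2:**
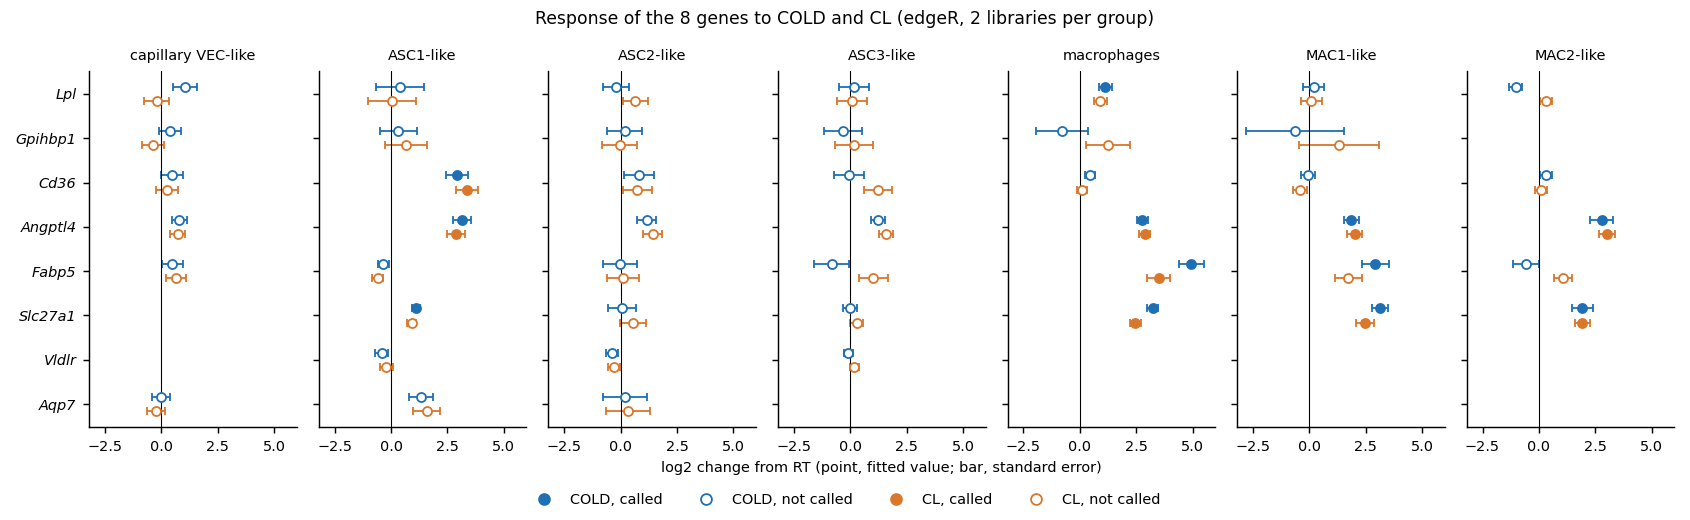
Fitted log2 change from RT (x axis; bars, standard error) of each gene in 7 cell classes under COLD (blue) and CL (orange), with filled points for an adjusted p under 0.05 over all genes. Filled points stand in the ASC1-like and macrophage panels, and none in the capillary VEC-like, ASC2-like or ASC3-like panels.

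ASC1-like cells formed 2 clusters. The second made up 2.62% and 4.49% of them at RT, 81.5% and 88.1% in COLD and 49.5% and 27.3% under CL. Angptl4 was higher under both treatments within each: in the first cluster it was at 31.03 and 96.0 CPM at RT and 275 to 361 CPM under treatment, and in the second, which held 35 and 58 RT cells, at 85.3 and 145 CPM at RT and 437 to 526 CPM under treatment. In the first cluster alone the COLD changes were 2.71 for Angptl4 (adjusted p = 0.0042), 3.07 for Cd36 (adjusted p = 0.0066) and 1.11 for Slc27a1 (adjusted p = 0.028). In the second alone they were 2.29 (adjusted p = 0.060), 3.35 (adjusted p = 0.34) and 1.88 (adjusted p = 0.27). Under CL the Cd36 change was 2.77 in the first cluster (adjusted p = 0.033) and 4.55 in the second (adjusted p = 0.14).

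Fabp5 moved in opposite directions in the 2 clusters. In the first it was at 67.0 and 73.0 CPM at RT but 212 and 126 CPM in COLD, a log2 change of 1.34 ± 0.26 (adjusted p = 0.014). In the second it was at 83.2 and 137 CPM at RT but 37.8 and 33.3 CPM in COLD, and it fell by 1.44 on the log2 scale (adjusted p = 0.049). Over both clusters the change was -0.33 ± 0.22 (adjusted p = 0.36), and with only cells under 0.5 adipocyte UMIs it was -2.40 (adjusted p = 0.00020). Lin- NK-like cells held 81.2 and 58.8 CPM of Fabp5 at RT, 97.7 and 88.6 CPM in COLD and 223 and 13.5 CPM under CL. The adipocyte gene sum of the first cluster moved with its Fabp5, from 145 and 187 CPM at RT to 350 and 236 CPM in COLD. In the second cluster, where Fabp5 fell, the sum did not fall with it. RT libraries of that cluster had a sum of 63.3 and 185 CPM, against 199 and 140 CPM for its COLD libraries, with overlapping ranges. Differentiating adipocyte-like cells held 3983 and 3190 CPM of Fabp5 in COLD. The part of adipocyte RNA in the Fabp5 change was not tested.

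**Figure D3:**
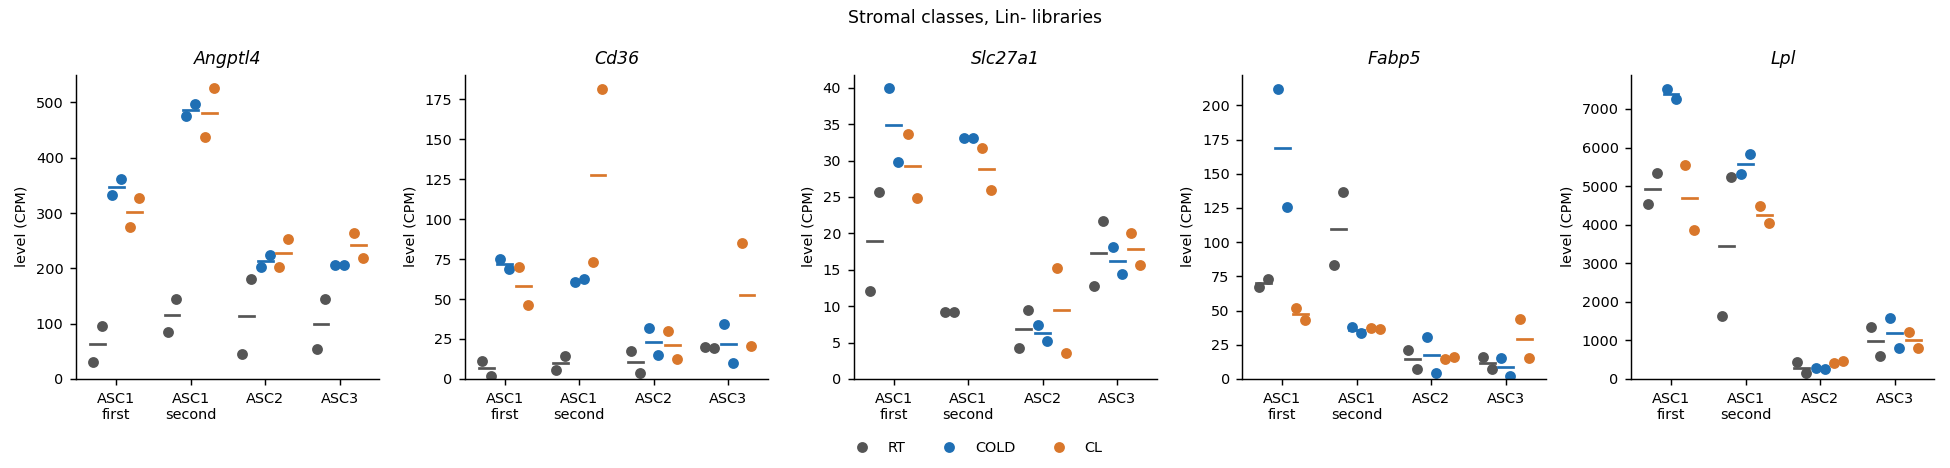
Level (CPM) of 5 genes in the first and second ASC1-like clusters and in ASC2- and ASC3-like cells, 1 point per library and a line at the mean of 2 libraries. Angptl4 is above both RT libraries in every treated ASC1-like library, and Fabp5 in COLD is highest in the first ASC1-like cluster.

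In ASC2-like cells Angptl4 was at 45.9 and 181 CPM at RT, 203 and 224 CPM in COLD and 203 and 254 CPM under CL. In ASC3-like cells it was at 54.2 and 144 CPM at RT, 206 and 206 CPM in COLD and 265 and 218 CPM under CL. The treated libraries lay above both RT libraries in each class, by log2 changes of 1.16 to 1.59, with adjusted p values of 0.19 to 0.45. None of the 8 genes tested in ASC2-like cells and none of 7 in ASC3-like cells was called by edgeR in either contrast, and at an unadjusted p under 0.05 it was Angptl4 alone in each of the 4 fits. DESeq2 called 1 of them, Angptl4 in ASC3-like cells under CL (1.61, adjusted p = 0.018). Over all genes edgeR called 0.394% and 0% in ASC2-like cells (COLD and CL) and 0.238% and 0.0694% in ASC3-like cells.

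The difference between classes was tested as a class-by-treatment term. The Angptl4 response in ASC1-like cells exceeded that in ASC2-like cells by 1.87 ± 0.21 in COLD (adjusted p = 9.1e-05) and 1.38 ± 0.21 under CL (adjusted p = 0.0074). It exceeded that in ASC3-like cells by 1.92 ± 0.23 in COLD (adjusted p = 2.9e-05) and 1.31 ± 0.23 under CL (adjusted p = 0.0087). Such terms were called for 8.66% and 1.05% of all genes (COLD and CL) against ASC2-like cells and 9.28% and 0.768% against ASC3-like cells. Vldlr, highest in ASC2-like cells, was at 141 and 276 CPM at RT there, 141 and 151 CPM in COLD and 116 and 155 CPM under CL, and its changes of -0.36 ± 0.27 and -0.30 ± 0.27 did not pass the test.

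Capillary VEC-like cells, where most of the route is expressed, showed no called change in these genes. Gpihbp1 was at 4230 and 5667 CPM at RT, 6358 and 6278 CPM in COLD and 3701 and 3251 CPM under CL. Its log2 change was 0.40 ± 0.49 in COLD and -0.37 ± 0.49 under CL (adjusted p = 0.84 and 0.86). The groups did not overlap, COLD lying above and CL below both RT libraries.

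Lpl transcript in capillary VEC-like cells was at 823 and 321 CPM at RT, 1339 and 1163 CPM in COLD and 604 and 377 CPM under CL. The second RT library and both CL libraries lay within the Lpl range of Lin- NK-like cells (82.8 to 701 CPM). The part of free RNA in capillary Lpl was not tested. The COLD change was 1.05 ± 0.54 (adjusted p = 0.51). Without the first RT library it was 2.21 and was called (adjusted p = 0.0078). Endothelial cells that stayed with the Lin+ fraction, which was split from the same cell suspensions and so is no independent sample, gave 1.04 ± 0.44 in COLD (adjusted p = 0.37).

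Angptl4 in capillary VEC-like cells was at 235 and 399 CPM at RT, 494 and 552 CPM in COLD and 460 and 472 CPM under CL, with changes of 0.79 ± 0.34 and 0.72 ± 0.34 (adjusted p = 0.42 and 0.56). Fabp5 was at 1596 and 2341 CPM at RT and 2381 to 3181 CPM under treatment, with changes of 0.49 ± 0.45 and 0.64 ± 0.45. Cd36 changed by 0.46 ± 0.48 and 0.24 ± 0.48. Aqp7 was at 527 and 824 CPM at RT, 607 and 674 CPM in COLD and 428 and 584 CPM under CL, with changes of -0.02 ± 0.39 and -0.25 ± 0.39.

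Of the 8 genes 6 passed the filter on low counts in capillary VEC-like cells, and edgeR called none in COLD or CL, beside 0.884% and 0.143% of all 8368 genes. DESeq2 called none either. At an unadjusted p under 0.05 there was 1 in COLD, Angptl4, and 0 under CL. The adipocyte gene sum in these cells was 370 and 785 CPM at RT, 1083 and 810 CPM in COLD and 1510 and 451 CPM under CL, and Elovl3 alone of the 12 was called (6.10 in COLD, adjusted p = 0.011). The second CL library held 53 of these cells.

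The capillary response was below that of ASC1-like cells for Angptl4 by 2.39 ± 0.37 in COLD (adjusted p = 7.1e-07) and 2.24 ± 0.38 under CL (adjusted p = 1.1e-05). For Cd36 it was below by 2.75 ± 0.72 and 3.45 ± 0.73 (adjusted p = 0.0056 and 0.00099), beside 8.66% and 2.11% of all genes. Between capillary and arterial cells no term of the 8 genes was called by edgeR, beside 0.0229% and 0.618% of all genes, and none between capillary and venous cells, beside 0.578% and 0.459%. At an unadjusted p under 0.05 there were 6 such terms, 4 of them for Lpl. Its capillary minus arterial response was 1.43 ± 0.39 in COLD (adjusted p = 0.28) but -1.04 ± 0.40 under CL (adjusted p = 0.40), and its capillary minus venous response was -1.15 ± 0.44 in COLD (adjusted p = 0.46) and -1.69 ± 0.46 under CL (adjusted p = 0.12). In arterial, venous, pericyte- and VSMC-like cells edgeR called 0 of the 8 genes, and the unadjusted p was under 0.05 for Lpl in venous cells in COLD and for Lpl, Angptl4, Cd36, Fabp5 or Slc27a1 in mural cells. Pericyte-like Angptl4 was at 77.0 and 177 CPM at RT, 379 and 310 CPM in COLD and 317 and 347 CPM under CL, with changes of 1.57 ± 0.38 and 1.58 ± 0.39 (adjusted p = 0.12 and 0.23). Over all genes the called shares in COLD and CL were 0.0496% and 0.0496% in arterial, 0% and 0% in venous, 0.672% and 0.0137% in pericyte-like and 0.0357% and 0% in VSMC-like cells. Lin+ endothelium likewise had 0 of 6 called, with 3 in COLD (Lpl, Angptl4 and Fabp5) and 2 under CL (Angptl4 and Fabp5) at an unadjusted p under 0.05, beside 0.0376% and 0.0751% of all genes called.

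**Figure D4:**
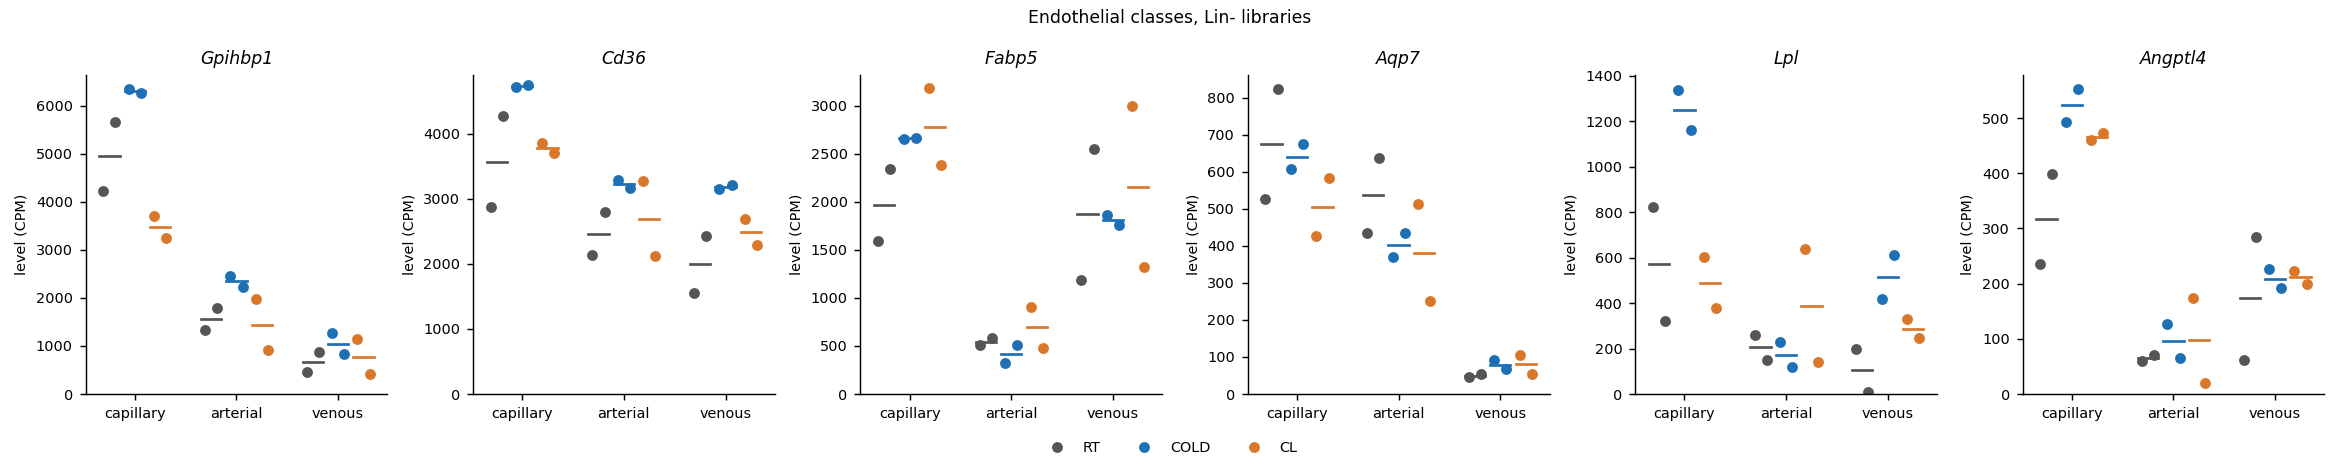
Level (CPM) of 6 genes in capillary, arterial and venous VEC-like cells of Lin-, 1 point per library and a line at the mean of 2 libraries, coloured by treatment. Gpihbp1 and Aqp7 lie higher in every capillary than in any venous library, and Fabp5 is lowest in arterial cells.

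In macrophages (MAC1- and MAC2-like cells together) COLD raised Fabp5, Slc27a1, Angptl4 and Lpl, and CL raised the first 3 of these. Fabp5 was at 145 and 65.6 CPM at RT, 3098 and 3202 CPM in COLD and 1858 and 600 CPM under CL. All treated libraries lay above both RT libraries. It rose 30.9-fold in COLD (log2 change 4.95 ± 0.53, adjusted p = 0.00037) and 11.3-fold under CL (3.50 ± 0.50, adjusted p = 0.0076). The COLD change was 5.62 without the first RT library (adjusted p = 0.012) and 4.52 without the second (adjusted p = 0.011). The CL call was lost without either RT library (4.17 and 3.06, adjusted p = 0.096 and 0.077), and the CL change was 2.61 without the first CL library.

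Slc27a1 in macrophages was at 8.6 and 12.0 CPM at RT, 98.9 and 94.3 CPM in COLD and 69.7 and 46.1 CPM under CL. It rose 9.42-fold in COLD (3.24 ± 0.24, adjusted p = 8.3e-05) and 5.46-fold under CL (2.45 ± 0.24, adjusted p = 0.0017), a CL call lost without the first RT library (adjusted p = 0.069). Angptl4 was at 4.5 and 7.5 CPM at RT, 38.6 and 44.1 CPM in COLD and 49.1 and 42.1 CPM under CL. It rose 6.85-fold (2.78 ± 0.26, adjusted p = 0.00020) and 7.33-fold (2.87 ± 0.26, adjusted p = 0.0013).

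Lpl in macrophages was at 677 and 390 CPM at RT, 1173 and 1093 CPM in COLD and 1201 and 820 CPM under CL. It rose 2.18-fold in COLD (1.12 ± 0.28, adjusted p = 0.014), a call lost without either COLD library or the second RT library (adjusted p = 0.058 to 0.078). Under CL the change was 0.91 ± 0.28 (adjusted p = 0.075). Cd36, at 341 to 595 CPM, changed by 0.46 ± 0.23 in COLD and 0.08 ± 0.23 under CL (adjusted p = 0.14 and 0.84). Of the 6 genes that passed the filter, 4 were called in COLD beside 34% of 10850 genes (16.6% up), and 3 under CL beside 7.69% (4.45% up).

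The makeup of the macrophages moved with treatment. MAC1-like cells were 9.85% and 19.9% of the macrophages at RT, 93.7% and 96.8% in COLD and 82.4% and 64.3% under CL, so the genes were also followed within each class. In lymphocytes of the same libraries Fabp5 was at 21.6 and 14.2 CPM at RT, 57.9 and 39.2 CPM in COLD and 75.8 and 29.1 CPM under CL. Their Angptl4 was at 0.33 and 0.71 CPM at RT, 5.24 and 3.48 CPM in COLD and 5.20 and 0.92 CPM under CL. Lpl there was at 8.6 and 6.0, 25.9 and 26.9, and 75.9 and 17.4 CPM, and Slc27a1 at 4.0 and 2.4, 9.7 and 4.0, and 14.4 and 3.7 CPM. The part of free RNA in the macrophage changes was not tested. The adipocyte gene sum in macrophages was 79 and 59 CPM at RT, 48 and 48 CPM in COLD and 169 and 59 CPM under CL, with 3 of its 9 tested genes lower in COLD and Ucp1 higher under CL.

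Within MAC1-like cells Fabp5 was at 760 and 150 CPM at RT, 3220 and 3280 CPM in COLD and 2131 and 837 CPM under CL, a rise of 2.93 ± 0.61 in COLD (adjusted p = 0.014) and a change of 1.73 ± 0.59 under CL (adjusted p = 0.16). In MAC2-like cells it was at 46.3 and 39.05 CPM at RT, 45.7 and 8.1 CPM in COLD and 154 and 47.4 CPM under CL, with changes of -0.57 ± 0.58 and 1.07 ± 0.38 (adjusted p = 0.67 and 0.21). The COLD response of Fabp5 was larger in MAC1-like than in MAC2-like cells by 3.72 ± 0.49 (adjusted p = 3.3e-06). The second COLD library held 28 MAC2-like cells.

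Lpl within MAC1-like cells was at 1691 and 444 CPM at RT, 1209 and 1114 CPM in COLD and 1298 and 916 CPM under CL, with changes of 0.19 ± 0.45 and 0.09 ± 0.45. Within MAC2-like cells it was at 515 and 373 CPM at RT, 272 and 225 CPM in COLD and 596 and 595 CPM under CL, with changes of -1.03 ± 0.29 (adjusted p = 0.078) and 0.31 ± 0.27. Neither class showed a called change. The 2 COLD responses differed by 1.40 ± 0.31 (adjusted p = 0.0062). Terms of this kind were called for 2.07% of all genes in COLD and 0.196% under CL.

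Angptl4 and Slc27a1 rose in both macrophage classes under both treatments. MAC1-like Angptl4 was at 9.9 and 12.6 CPM at RT and 38.8 to 49.2 CPM under treatment, a rise of 1.86 ± 0.33 in COLD and 2.00 ± 0.33 under CL (adjusted p = 0.0073 and 0.019). MAC2-like Angptl4 was at 3.7 and 5.9 CPM at RT and 34.2 to 48.6 CPM under treatment, a rise of 2.77 ± 0.49 and 3.01 ± 0.36 (adjusted p = 0.0055 and 0.00067). MAC1-like Slc27a1 rose by 3.12 ± 0.37 and 2.46 ± 0.38 (adjusted p = 0.0017 and 0.016) and MAC2-like Slc27a1 by 1.92 ± 0.47 and 1.93 ± 0.35 (adjusted p = 0.039 and 0.0097). Slc27a1 spanned 3.3 to 101 CPM over the C57 MAC1-like libraries and 9.5 to 59.2 CPM over the MAC2-like ones. The RT libraries held 71 and 143 MAC1-like cells, and the smallest MAC1-like sum held 301724 UMIs, so RT levels rest on few counts. Over all genes 11.7% (COLD) and 1.36% (CL) were called in MAC1-like cells, and 2.35% and 1.31% in MAC2-like cells.

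**Figure D5:**
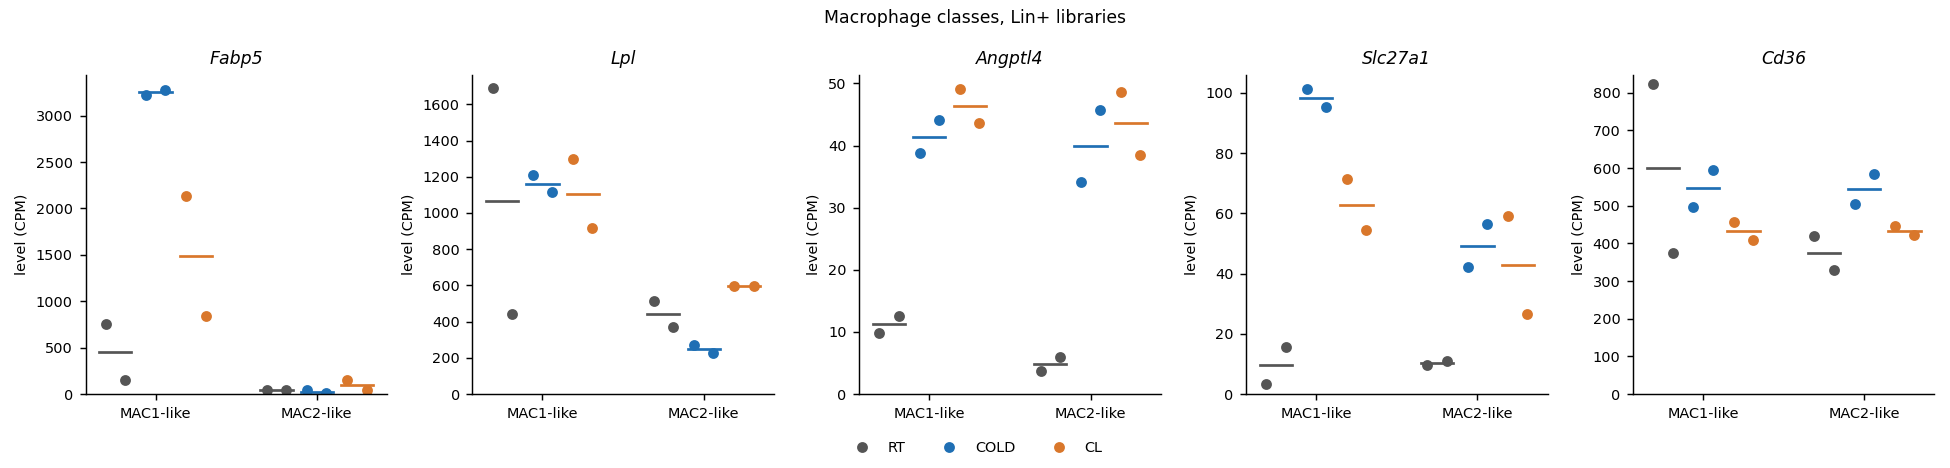
Level (CPM) of 5 genes in MAC1-like and MAC2-like cells of Lin+, 1 point per library and a line at the mean of 2 libraries, coloured by treatment. Fabp5 is high in treated MAC1-like cells and below 160 CPM in all 6 C57 MAC2-like libraries, while Angptl4 and Slc27a1 are higher under treatment in both classes.

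COLD and CL were then set against each other. No difference was called by edgeR in 78 tests of the 8 genes over the classes fitted, and 11 had an unadjusted p under 0.05. Over all genes the called shares were 3.7% in macrophages, 2.62% in MAC1-like and 0.0584% in MAC2-like cells, 0.478% for ASC1-like, 0% for ASC3-like and 0.0183% for ASC2-like cells. They were 0.155% in capillary, 0.0248% in arterial and 0% in venous VEC-like cells, 0.0563% in Lin+ endothelium, 0.0549% in pericyte-like and 0.0238% in VSMC-like cells. Macrophage Slc27a1 was 0.79 ± 0.19 higher in COLD (adjusted p = 0.054), macrophage Fabp5 1.45 ± 0.46 higher (adjusted p = 0.12) and capillary Lpl 1.26 ± 0.55 higher (adjusted p = 0.46).

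The rest of the pathway was followed through 5 lists, whose counts in ASC1-like cells stand beside 14.1% of all genes called in COLD (7.38% up) and 1.22% under CL (0.705% up). In ASC1-like cells the partners and modulators of lipases had 2 called up and 1 down of 8 tested in COLD: endothelial lipase Lipg (2.35 ± 0.48) and Apoc1 (2.01 ± 0.38) rose, and the proprotein convertase Pcsk6 fell by 1.01. Among lipoprotein receptors the HDL receptor Scarb1 fell by 1.76 in COLD and Sorl1 by 3.50, and none rose. Of 14 genes for fatty acid transport and activation 2 rose, Slc27a3 (2.32 ± 0.49) among them, and 3 fell, the acyl-CoA synthetases Acsl3 (-2.31 ± 0.43) and Acsl4 (-0.99 ± 0.20) and the caveolin Cav2 (-1.08 ± 0.24). The other gene that rose, named here after its values were seen, was Fabp4 (5.76 ± 1.38), an adipocyte gene that helped to set the free-RNA correction, which alters its counts.

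Of the 2 tested glycerol genes Gpd1, glycerol-3-phosphate dehydrogenase, rose in ASC1-like cells in COLD (2.76 ± 0.76) and under CL (4.01 ± 0.76). edgeR called none of 7 PPAR-responsive genes under CL in ASC1-like cells, where 3 had an unadjusted p under 0.05. Under CL the other call in these lists was Acsl4, which fell by 1.35. edgeR called no gene of the 5 lists in capillary VEC-like, ASC2-like or ASC3-like cells. At an unadjusted p under 0.05, Gpd1 passed in all 3 classes under both treatments. Gpd1 was also among the 10 leading genes of the differentiating adipocyte-like cluster. The adipocyte gene sum was 62.5 and 87.2 CPM at RT, 325 and 124 CPM in COLD and 594 and 155 CPM under CL in ASC2-like cells, and 61.1 and 80.7, 239 and 135, and 504 and 155 CPM in ASC3-like cells. In ASC1-like cells it was 142 and 187, 222 and 149, and 494 and 223 CPM, with COLD overlapping RT. In capillary VEC-like cells it was 370 and 785, 1083 and 810, and 1510 and 451 CPM, with CL overlapping RT. The median change over the 12 adipocyte genes was 2.59 in COLD and 3.95 under CL in ASC1-like, 3.69 and 4.35 in ASC2-like, 2.52 and 3.6 in ASC3-like and 0.96 and 1.66 in capillary VEC-like cells. The part of adipocyte RNA in the Gpd1 changes was not tested.

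In macrophages 4 of 5 tested PPAR-responsive genes rose under both treatments, beside 16.6% of all genes up in COLD and 4.45% under CL. They were the lipid droplet coat gene Plin2 (3.70 ± 0.27 in COLD and 2.66 ± 0.26 under CL), Hilpda, an inhibitor of lipolysis (2.90 ± 0.27 and 2.45 ± 0.27), and the oxidation enzymes Acadl (1.21 ± 0.20 and 1.13 ± 0.20) and Cpt1a (0.59 ± 0.20 and 0.81 ± 0.20). The median change over the 5 was 1.21 in COLD and 1.13 under CL, beside -0.02 and 0.01 over all genes. Within MAC1-like cells, whose share of the macrophages rose with treatment, 3 of the 5 were called up in COLD and 2 under CL, beside 11.7% and 1.36% of all genes called. Within MAC2-like cells 2 and 1 were called up, beside 2.35% and 1.31%. Of 13 transport and activation genes 3 rose and 4 fell in COLD, beside 34% of all genes called (16.6% up), with Fabp4 (2.09 ± 0.24) up and the acyl-CoA synthetases Acsl1 (-1.25 ± 0.17), Acsl3 (-2.14 ± 0.41) and Acsl4 (-1.37 ± 0.28) down. Under CL Fabp3 rose (2.13 ± 0.54) and Acsl1 fell by 0.90.

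Among 6 lipoprotein receptors tested in macrophages, Lrp1 (0.95 ± 0.17) and its chaperone Lrpap1 (0.87 ± 0.21) rose in COLD and 1 fell. Under CL none rose and 1 fell. These calls stand beside 34% of all genes called in COLD and 7.69% under CL. The lipase maturation factor Lmf1 (1.00 ± 0.29) and the convertase Furin (0.68 ± 0.21) rose in COLD, 2 of 6 lipase partners tested, beside 34% of all genes called (16.6% up), so that nothing is read from that count. Gpd1 rose under CL (2.57 ± 0.55).

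In the Adrb1 line there was 1 library per group, so values carry exact 95% Poisson intervals that cover counting error only. Adrb1, the targeted gene, had 15 counts in the stromal cells of WT RT, 47 in WT COLD, 0 in KO RT and 7 in KO COLD (0.570 CPM, interval 0.229 to 1.17), and the 0 allows up to 0.747 CPM. RT libraries used kit v3 and COLD libraries kit v2, so that temperature and kit cannot be told apart in this line.

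ASC1-like Angptl4 in that line was at 110 CPM (94.8 to 126) in WT RT and 607 CPM (593 to 622) in WT COLD, and at 182 CPM (161 to 206) in KO RT and 594 CPM (576 to 612) in KO COLD. The COLD libraries of either genotype exceeded the RT libraries of either genotype. ASC1-like Cd36 was at 31.5 and 68.3 CPM in WT and 35.6 and 79.7 CPM in KO (RT and COLD). MAC1-like Fabp5 was at 115 CPM (89.0 to 147) in WT RT and 4500 CPM (4439 to 4562) in WT COLD, and at 92.2 CPM (72.0 to 116) in KO RT and 2336 CPM (2255 to 2419) in KO COLD. MAC2-like Fabp5 in this line was at 10.7 CPM (2.92 to 27.4) in WT RT and 236 CPM (204 to 272) in WT COLD, and at 14.3 CPM (6.17 to 28.2) in KO RT and 38.5 CPM (21.99 to 62.5) in KO COLD. The WT COLD level thus lay above every C57 MAC2-like library.

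MAC1-like Slc27a1 in the Adrb1 line was at 23.1 and 84.0 CPM in WT and 20.8 and 56.0 CPM in KO. Capillary Gpihbp1 was at 2738 CPM (2506 to 2986) in WT RT and 5971 CPM (5647 to 6308) in WT COLD, and at 2221 CPM (2036 to 2418) in KO RT and 5987 CPM (5523 to 6479) in KO COLD. Capillary Lpl differed in order between the genotypes, at 861 and 1230 CPM in WT and 1121 and 622 CPM in KO, where the KO COLD library held 40 capillary cells and 64 Lpl counts.

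Genes with the most similar pattern were ranked by Pearson r of log2(CPM + 1) over the class-by-treatment means of 1 fraction (36 points in Lin-, 48 in Lin+), which share libraries. Closest to Gpihbp1 were Tspan13 (r = 0.975), the VEGF receptor Kdr (0.972) and the endothelial cadherin Cdh5 (0.970). Cd36 was closest to Gpr4 (0.922), and Aqp7 to Lpar6 (0.920), and Cd36 was also among its 3 closest (0.902). Vldlr was closest to Antxr1 (0.900), Fabp5 in Lin+ to Anxa3 (0.858), Lpl to Ankef1 (0.821), Slc27a1 to Fam234a (0.793) and Angptl4 to Tor1aip2 (0.739).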

How the data were processed

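The authors sequenced 10x 3′ libraries, aligned and counted them with Cell Ranger 3.0.1 on mm10 and, per their methods, removed free RNA with SoupX from Fabp4 and Car3, which alters those genes. The deposited matrices hold the resulting expected counts per gene and cell. Cells were kept with under 10% mitochondrial counts, under 15000 UMIs and, by fraction, under 4000 genes (Lin+) or over 100 genes (Lin-). Library totals were 7.86e+06 to 4.20e+07 UMIs.

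Each fraction was aligned across 6 cohorts and clustered (2000 variable genes, 30 components, resolution 1), with the 8 genes and the 5 pathway lists left out. Mitochondrial, haemoglobin and sex-linked genes were also left out, while the brown adipocyte genes were not. Clusters were named from fixed markers. Doublets stayed in the main fits, and leaving out the top 6% of Scrublet scores was an alternative. Expected counts were summed per library and class and rounded, and the 6 C57 libraries of a fraction were fitted with edgeR 4.0.16 (R 4.3.3, TMM, filterByExpr, quasi-likelihood test, two-sided, Benjamini-Hochberg over all genes tested, threshold 0.05). Terms for a difference between classes carried the library as a block. Cells are not replicates. The fit was tested on simulated data for COLD. A log2 change of 1 was recovered for 28% of changed genes in capillary VEC-like, 46% in ASC1-like and 18% in ASC2-like cells. It was recovered for 25% in ASC3-like cells and 58% in macrophages, and a change of 2 for 80% to 91%. A gene not called can thus still have changed by such amounts.

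The members and lists were chosen with earlier results of these data known. From each list, up to 4 called genes by smallest p were named in each main fit. Replicate numbers mark a shared experiment, per the methods. Deviations of libraries with the same number correlated by -0.126 to 0.286 over 5 classes. With 2 pools of mice per treatment, p-values weigh a change against the spread between these libraries. That spread was estimated over all 6 libraries of a fit, with information shared between genes. Samples of 2 were compared by chi-square and none matched within sampling noise (3.24 or more per degree of freedom). Alternatives were DESeq2 1.42.0, other scaling, no filter, a replicate block, resolution 2, cells over 1000 UMIs, all 10 libraries and leaving out each library. Those on shared barcodes, adipocyte UMIs, the unnamed clusters, single ASC1-like clusters and Lin+ endothelium were added after seeing the data. Promoters came from RefSeq (GRCm38.p6), with 4 of 8 genes matched. Intervals are exact at 95% and cover counting error only. Some genes of the lists are not reported here.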

Additional observations from a re-analysis of the deposited data

Results flagged for a closer look

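Groups of 2 libraries are too small for a test of outlying samples. In 15 of 84 tests a treatment response differed between 2 classes (edgeR, class-by-treatment term, adjusted p under 0.05), beside 8.66% of all genes for capillary VEC-like against ASC1-like cells in COLD and 2.11% under CL. Capillary VEC-like minus ASC1-like responses were -2.75 ± 0.717 for Cd36 (adjusted p = 0.0056) and -2.39 ± 0.372 for Angptl4 (adjusted p = 7.1e-07) in COLD. Under CL they were -3.45 ± 0.726 for Cd36 (adjusted p = 0.00099), -2.24 ± 0.377 for Angptl4 (adjusted p = 1.1e-05) and -1.86 ± 0.524 for Aqp7 (adjusted p = 0.033). Aqp7 in ASC1-like cells stood at 1.3 to 11.7 CPM, highest in the first CL library, where the adipocyte gene sum was also highest (494 CPM), and the part of free RNA in that difference was not tested.

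ASC1-like minus ASC2-like responses were 2.2 ± 0.531 for Cd36 (adjusted p = 0.017) and 1.87 ± 0.213 for Angptl4 (adjusted p = 9.1e-05) in COLD, and 2.88 ± 0.532 (adjusted p = 0.016) and 1.38 ± 0.213 (adjusted p = 0.0074) under CL. All-gene shares were 8.66% and 1.05%. ASC1-like minus ASC3-like responses were 3.01 ± 0.805 for Cd36 (adjusted p = 0.024), 1.92 ± 0.226 for Angptl4 (adjusted p = 2.9e-05) and 1.13 ± 0.332 for Slc27a1 (adjusted p = 0.039) in COLD, and 1.31 ± 0.225 for Angptl4 (adjusted p = 0.0087) under CL, beside 9.28% and 0.768%.

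MAC1-like minus MAC2-like responses in COLD were 1.4 ± 0.308 for Lpl (adjusted p = 0.0062) and 3.72 ± 0.491 for Fabp5 (adjusted p = 3.3e-06), beside 2.07%. MAC2-like cells numbered 80 and 28 in the COLD libraries. No difference was called between capillary and arterial or venous VEC-like cells.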

How the results depend on the processing

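Of 1240 values of the 8 genes under the alternatives, 1114 kept their direction and side of the threshold. A further 91 uncalled values changed sign and stayed uncalled, 21 gained a call, 13 lost one and 1 reversed. The reversal was Fabp5 in ASC1-like cells in COLD, 1.34 in the first cluster alone. The number of the 8 genes called in COLD was 5 in ASC1-like cells with all 10 libraries and 1 in the second cluster alone, against 3, where 4288, 46 and 1738 of all genes were called. The fits on all 10 libraries had a term for line but none for kit, which changed with temperature in the Adrb1 line. Under CL the number of the 8 genes called was 4 in ASC1-like cells with no filter and 0 in the second cluster alone, against 2 (747, 22 and 151 of all genes). Without the filter it was 1 in ASC2-like cells in COLD, 1 under CL, 1 in ASC3-like cells in COLD and 2 under CL, where DESeq2 gave 1, against 0 in each, as all-gene calls went from 43, 0, 24 and 7 to 473, 326, 226 and 147 (DESeq2 24). Leaving out 1 library gave 0 to 1 in capillary VEC-like cells in COLD (1, Lpl, without the first RT library, with 134 of all genes called against 74), 0 to 1 in ASC2-like cells under CL (Lpl 2.15, adjusted p = 0.038, without the first RT library, with 48 against 0) and 1 to 5 in macrophages under CL (1 without the first RT library and 5 without the second CL library, with 8 and 2040 of all genes called against 834). It gave 7 to 14 in the other classes (14 without the second CL library), 0 to 2 for COLD against CL and 6 to 19 for differences between classes (6 without the second RT libraries).

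With the replicate block no call of the 8 genes changed except Slc27a1 in ASC1-like cells under CL (0.92, called), while calls over all genes went under CL from 12 to 28 in capillary VEC-like, 151 to 322 in ASC1-like, 0 to 26 in ASC2-like and 7 to 44 in ASC3-like cells, and in COLD from 43 to 136 in ASC2-like and 24 to 79 in ASC3-like cells. Over the alternatives not added after seeing the data, calls in COLD ranged from 1 to 337 in capillary VEC-like, 562 to 4288 in ASC1-like, 0 to 1365 in ASC2-like, 8 to 943 in ASC3-like cells and 1509 to 5585 in macrophages. Under CL they ranged from 2 to 253, 46 to 747, 0 to 326, 2 to 147 and 8 to 2040. With plain library totals the median change of all genes was as low as -0.25 in the ASC classes (ASC2-like cells under CL), against -0.01 in the reported fit. The cause of these changes was not tested. Capillary VEC-like cells without adipocyte UMIs could not be fitted, since a library held under 20 of them.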
